A study of Mus musculus with 6 samples.

Results

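Intronic accessible regions lying away from every annotated transcription start were examined in the chromatin of mouse proximal tubules. Such a region was a merged peak whose strongest summit fell in an intron of a protein-coding gene, in no annotated exon, and over 5 kb from every annotated start, and which was present in at least 3 of the 6 deposited peak lists. Of 126099 merged regions, 88438 were present in at least 3 lists, and 24308 of these (27.5%) met the rule. The summits of 6942 regions lay only in first introns, those of 14281 only in later introns, and those of 3085 in an intron that was first in some transcripts and later in others. Positions were judged in GRCm38 with the GENCODE M21 comprehensive annotation.

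The libraries were made by ATAC-seq, in which a transposase inserts sequencing adapters into open chromatin. Each library came from 3 hand-dissected tubule pieces of the S1 segment, the part of the proximal tubule next to the glomerulus, from kidneys of wild-type male C57BL/6 mice. The mice were 7 weeks old at operation and the tissue was labelled 24 h after either a sham operation (Sham, 3 libraries) or excision of 1 of the kidneys (unilateral nephrectomy, abbreviated UNx; 3 libraries). The labels do not say whether the libraries of an operation came from separate mice, so p-values measure only the spread between libraries, which may be technical. After loss of a kidney the remaining one enlarges, largely by growth of proximal tubule cells, and the comparison asks how chromatin accessibility differs between the operations.

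Introns carry many of the enhancers of mammalian genes, the elements at which transcription factors bind at a distance from the promoter. The first intron is often the longest, and enhancers that act on the host gene are frequently found there. An accessible intron region may act on another gene than its host, may be an insulator bound by CTCF, or may be a start that the annotation lacks, so the host gene is given here as a position only.

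The lists held 77355 to 100999 distinct peaks each, and sequencing depth is unknown because they hold no read counts. Strength was therefore given as a percentile rank within the 77355 strongest peaks of each list, by the authors' −log10 q, with values near 100 for the strongest peaks and 0 for a region not among them. The strongest summit came from the library UNx 3 in 53.9% of the intronic regions, and UNx 3 had the highest median −log10 q of the lists, 26.5 against 12.1 to 20.3 in the others. All 5 S1 markers (Slc5a2, Slc34a1, Lrp2, Slc5a12 and Slc2a2) had a peak within 1 kb of a start in all 6 lists, with mean percentile ranks of 66.7 to 94.5. The collecting duct markers Aqp2 and Slc4a1 and the leukocyte markers Ptprc and Csf1r had none in any list. Umod and Slc12a1, markers of the thick ascending limb, had one in all 6 lists, as did Nphs1 of podocytes and Col1a1 of stroma. Of 4 markers of later proximal segments, Slc22a7 and Cyp4b1 had one in all 6 lists, and 1 had none. The mean percentile ranks of Slc22a7 and Cyp4b1 were 58.4 and 70.0, so these peaks do not set S1 apart from later proximal segments.

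Of 10 splits of 3 libraries against 3, the smallest p that an exact permutation test can give is 0.1, and an exact sign-flip test over 6 libraries cannot go below 0.03125.

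The strongest intronic regions ranked with the strongest peaks of the genome in every library. The sequences within 100 bp of the summits are shown for the strongest pair in first introns and the strongest pair in later introns, because these regions had promoter-like strength far from any annotated start. Letters are GRCm38, plus strand, 5′ to 3′, and capitals mark a match to any of 13 consensus strings listed with the motif results.
Myo1e, first intron, chr9:70229931-70230131: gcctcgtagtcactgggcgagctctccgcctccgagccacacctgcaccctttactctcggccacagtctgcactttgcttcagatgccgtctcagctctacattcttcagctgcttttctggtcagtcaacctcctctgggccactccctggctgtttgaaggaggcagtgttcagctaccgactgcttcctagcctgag
Zfp13, first intron, chr17:23592605-23592805: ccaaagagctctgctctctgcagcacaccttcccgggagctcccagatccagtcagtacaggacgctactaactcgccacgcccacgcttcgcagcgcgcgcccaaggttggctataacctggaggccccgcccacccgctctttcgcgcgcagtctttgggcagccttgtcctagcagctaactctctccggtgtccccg
Eefsec, later intron, chr6:88321995-88322195: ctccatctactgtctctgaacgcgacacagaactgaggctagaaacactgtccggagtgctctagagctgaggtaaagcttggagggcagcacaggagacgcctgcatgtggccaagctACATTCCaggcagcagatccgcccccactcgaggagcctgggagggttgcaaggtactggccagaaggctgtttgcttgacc
Arhgap42, later intron, chr9:9083530-9083730: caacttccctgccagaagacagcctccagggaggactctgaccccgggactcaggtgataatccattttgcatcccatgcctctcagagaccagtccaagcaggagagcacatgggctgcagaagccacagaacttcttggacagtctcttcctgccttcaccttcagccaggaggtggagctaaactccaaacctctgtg

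The region in intron 1 of Myo1e (chr9:70229658-70230351, 694 bp), which encodes a class I myosin that links membranes to actin, lay 22663 bp from the nearest start. Its percentile ranks were 99.1, 99.2 and 99.0 in the Sham libraries and 99.1, 99.89 and 96.9 in the UNx libraries. The region in intron 1 of Zfp13, a zinc finger gene, (chr17:23592356-23593182) lay 6473 bp from the nearest start and ranked at 99.2 ± 0.51 in Sham and 98.4 ± 0.32 in UNx (SD, n = 3 each). Its summit sequence was 63.7% G and C, and it had no match to the 13 strings. The next in first introns was in Hunk, a protein kinase gene (chr16:90411948-90413424), at 98.7 ± 0.24 in Sham and 98.9 ± 0.85 in UNx (SD, n = 3 each). These 3 regions showed no difference between operations beyond the spread of the libraries, with adjusted p of 0.776 to 0.958 by limma.

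The strongest region in a later intron lay in intron 4 of 6 of Eefsec (chr6:88321333-88322519, 1187 bp), whose product delivers selenocysteine to the ribosome. It was 31511 bp from the nearest start and ranked at 99.6, 99.3 and 99.7 in Sham and 99.97, 99.99 and 99.97 in UNx. The groups did not overlap, but the difference of 0.45 was not past the threshold (limma adjusted p = 0.871). Its sequence held a match to the TEAD string, shown in capitals. The region in Arhgap42, a GTPase-activating protein gene, (chr9:9082990-9084046) was 111839 bp from any start and ranked at 99.8 ± 0.10 in Sham and 99.3 ± 0.73 in UNx (SD, n = 3 each), and its summit lay in a soft-masked repeat. The next, in Ccdc93, which encodes a subunit of an endosomal recycling complex (chr1:121463700-121464505), ranked at 99.3 ± 0.34 and 99.4 ± 0.72 (SD, n = 3 each).

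First introns held more accessible regions per length than later introns in every library. Density was taken per Mb of eligible sequence, that is intron in no exon and over 5 kb from every start. There were 141.2 Mb of it in first introns with 49.2 regions per Mb, and 442.0 Mb in later introns with 32.3 regions per Mb, a ratio of 1.52. In the lists of equal length, the density in first introns was 36.6, 35.0 and 35.8 per Mb in Sham and 36.2, 36.8 and 38.2 per Mb in UNx. In later introns it was 25.4, 23.6 and 25.0 per Mb in Sham and 23.97, 24.6 and 25.0 per Mb in UNx. The lowest value in first introns was thus above the highest in later introns. The log2 ratio of the densities was 0.567 on average and above 0 in 6 of 6 libraries (exact sign-flip permutation test, two-sided, p = 0.03125, the smallest it can give). All lists were read on the same genome and annotation, and the test speaks only of the spread between libraries.

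The log2 density ratio was 0.539 ± 0.0257 in Sham and 0.594 ± 0.0159 in UNx (SD, n = 3 each). The 3 UNx values, 0.578 to 0.610, were all above the 3 Sham values, 0.520 to 0.568, and the difference of 0.0551 had an exact permutation p of 0.1, two-sided, the smallest this design allows.

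**Figure D1:**
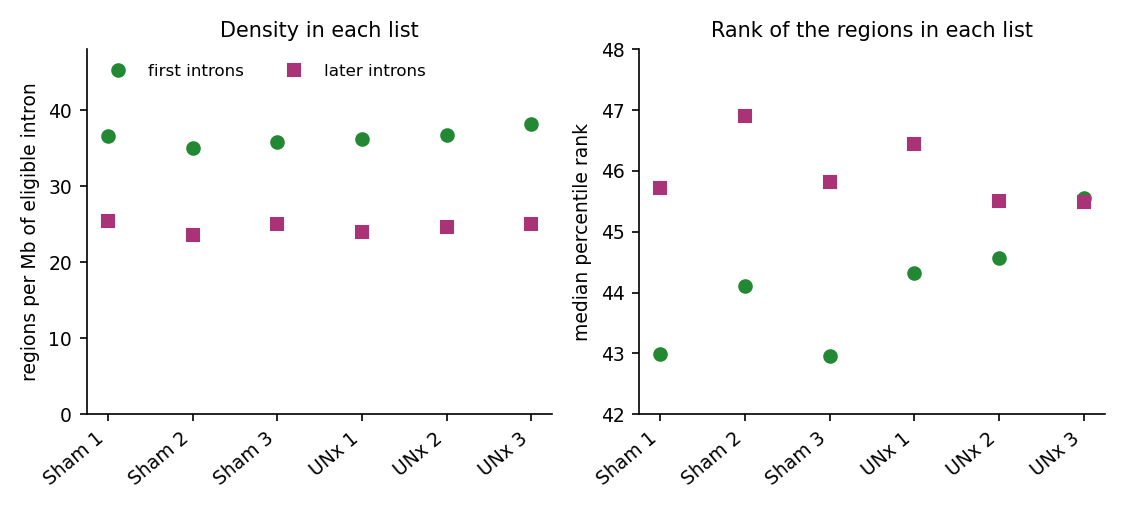
Regions per Mb of eligible intron (left, axis from 0) and median percentile rank of the regions (right, axis from 42 to 48) in each of the 6 peak lists, with first introns as circles and later introns as squares. Density was higher in first introns in every list, whereas the median rank was lower in first introns in every list but UNx 3.

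More regions did not go with stronger regions. Among regions present in a list, the median percentile rank in first introns was 43.0, 44.1 and 43.0 in Sham and 44.3, 44.6 and 45.6 in UNx. In later introns it was 45.7, 46.9 and 45.8 in Sham and 46.4, 45.5 and 45.5 in UNx. The difference, first minus later, was −1.90 on average and below 0 in 5 of 6 libraries, with a two-sided exact sign-flip p of 0.0625. The difference was −2.80 ± 0.0634 in Sham and −0.999 ± 1.09 in UNx (SD, n = 3 each), and the operations differed by 1.80 with an exact permutation p of 0.1. Without UNx 3, the only library in which first introns ranked higher, with the rule applied to the other 5 lists, the mean was −2.10.

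The ratio of first to later introns was higher within 20 kb of starts than farther away. From 5 to 10 kb from the nearest start, first introns held 65.2 regions per Mb and later introns 43.0, a ratio of 1.52. The ratio was 1.50 from 10 to 20 kb and 1.32 from 20 to 50 kb, and each of these was above 1 in 6 of 6 libraries (exact sign-flip permutation p = 0.03125 each, Benjamini-Hochberg over the 5 bands 0.0521). In the single libraries the ratio was 1.40 to 1.50 at 5 to 10 kb and 1.43 to 1.53 at 10 to 20 kb, the latter higher in 6 of 6. From 50 to 100 kb the densities were 23.4 and 21.8 per Mb, with the ratio above 1 in 4 of 6 libraries. Beyond 100 kb both densities were 13.2 per Mb, with the ratio between 0.844 and 1.07 in the libraries, and exact sign-flip p-values in these last bands were 0.188 and 0.219. Whether the ratio itself differed between bands was not tested.

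**Figure D2:**
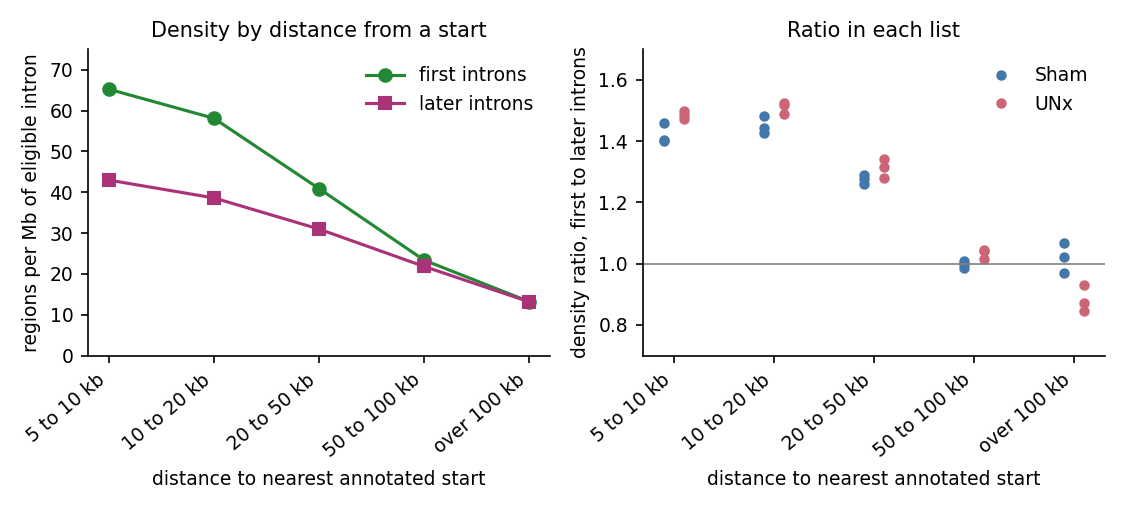
Left, regions per Mb of eligible intron by distance to the nearest annotated start, in first (circles) and later introns (squares), over all regions present in at least 3 lists. Right, the ratio of both densities in each list, Sham and UNx, among its 77355 strongest peaks. Density fell with distance in both classes, and the ratio lay between 1.40 and 1.50 at 5 to 10 kb and around 1 beyond 50 kb.

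The same order held when 1 transcript was taken per gene. Density was 51.4 per Mb in intron 1, 41.2 in intron 2, 35.0 in intron 3 and 33.8 in intron 4, and 27.4 in introns beyond number 10. Final introns of transcripts with at least 3 introns held 32.6 per Mb. First introns were longer, with a median of 17.5 kb against 5.99 kb for intron 2 among introns with eligible sequence. At matched intron length the ratio of first to later introns was 1.82 under 10 kb, 1.82 from 10 to 20 kb, 2.11 from 20 to 50 kb, 1.80 from 50 to 100 kb and 1.36 above 100 kb. These ratios are over all lists together and were not tested. By chromosome, the density was 31.0 to 49.3 per Mb on the autosomes, highest on chromosomes 11, 19 and 4, and 14.3 per Mb on X, which male cells carry as a single copy.

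Intronic regions were narrower, weaker and poorer in CpG than promoter regions, and close to intergenic ones in most respects. Their median width was 525 bp, against 880 bp for 21480 regions with a summit within 1 kb of a start and 530 bp for 19568 intergenic regions over 5 kb from starts. They were present in all 6 lists in 61.6% of cases, against 81.4% and 63.1%. Their median percentile rank was 44.9 to 46.0 in the libraries, against 74.9 to 77.9 for promoters and 46.4 to 49.4 for intergenic regions, and it was the lowest of these in 6 of 6 libraries (exact sign-flip permutation p = 0.03125 for each comparison). The median G and C content around the summit was 49.3%, the same as in intergenic regions, and 61.2% in promoters. The ratio of observed to expected CpG was 0.187, against 0.642 in promoters. Soft-masked repeats held 10.3% of the summits but 29.7% of the eligible sequence.

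The median G and C content and CpG ratio of first introns (49.3% and 0.189) and of later introns (49.3% and 0.188) were close. The regions of highest rank were also wider: over the 19533 regions that passed the filter of the test described below, the median width went from 387 bp in the 3907 weakest to 878 bp in the 3907 strongest. In the same sets the share in first introns was 29.5% in the weakest and 26.3% in the strongest, and the share of soft-masked summits was 12.2% and 7.58%.

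The rule has thresholds on distance and on the number of lists. Regions 4 to 5 kb from a start, just outside the rule, numbered 1884 with a median mean rank of 30.5, and those 5 to 6 kb away, just inside, 1826 with 31.3. Intronic regions in 2 lists, left out, numbered 3910 with a median best −log10 q of 6.35, and those in 3 lists, kept, 3005 with 8.83. Of the regions kept, those in exactly 3 lists had a median mean rank of 2.25 and those in all 6 lists 50.7.

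Consensus strings of 13 transcription factor families were searched on both strands within 100 bp of each summit. A match describes the letters of that window and is not evidence of binding. The strings were TCAAGGTCA for estrogen related receptors (ERR), TGANTCA for AP-1, TGTTTAC for forkhead factors, TTGCNNAA for C/EBP, GGAATGT for TEAD, CCGGAAGT for ETS, GGGGCGGGG for the GC box, and the longer strings for NRF1, CTCF, HNF1, the glucocorticoid and mineralocorticoid receptors (GR), PPAR:RXR and the HNF4 direct repeat. The HNF4 and PPAR:RXR strings overlap.

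The strings of proximal tubule nuclear receptors were found more often in intronic than in promoter regions, and the strings typical of CpG promoters far less often, and in both respects intergenic regions were like the intronic ones. In intergenic regions the shares were 1.26% for HNF4, 0.603% for ERR, 0.266% for HNF1, 8.86% for AP-1, 9.48% for C/EBP, 4.91% for TEAD, 3.10% for forkhead, 1.10% for the GC box, 0.164% for NRF1 and 0.296% for ETS. The HNF4 direct repeat was in 1.45% of intronic regions, 0.503% of promoters and 1.16% of all regions present in at least 3 lists. ERR matched 0.732% of intronic regions against 0.270% of promoters and 0.562% of all, and HNF1, a factor required for many tubule transporter genes, 0.251% against 0.0978% and 0.209%. AP-1 matched 8.69% against 4.24% and 7.43%, C/EBP 9.03% against 5.22% and 7.97%, TEAD 4.65% against 2.30% and 3.96%, and forkhead 3.03% against 1.69% and 2.64%. The GC box matched 0.675% of intronic regions and 12.9% of promoters (3.93% of all), NRF1 0.0987% and 4.14% (1.15% of all), and ETS 0.206% and 3.95% (1.18% of all). GR matched 0.584% of intronic regions and 0.503% of all, and PPAR:RXR 0.197% and 0.147%. No test was made of these shares.

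CTCF, an insulator protein that anchors chromatin loops, was the string that most set first and later introns apart among those with over 100 matches. It matched 85 of 6942 regions in first introns (1.22%) and 351 of 14281 in later introns (2.46%), with 3.18% in intergenic regions, 2.41% in promoters and 2.60% in all. The other strings differed less, for example AP-1 with 8.50% and 8.63% and HNF4 with 1.38% and 1.42%. HNF1 matched 0.158% and 0.315%, on 11 and 45 regions.

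**Figure D3:**
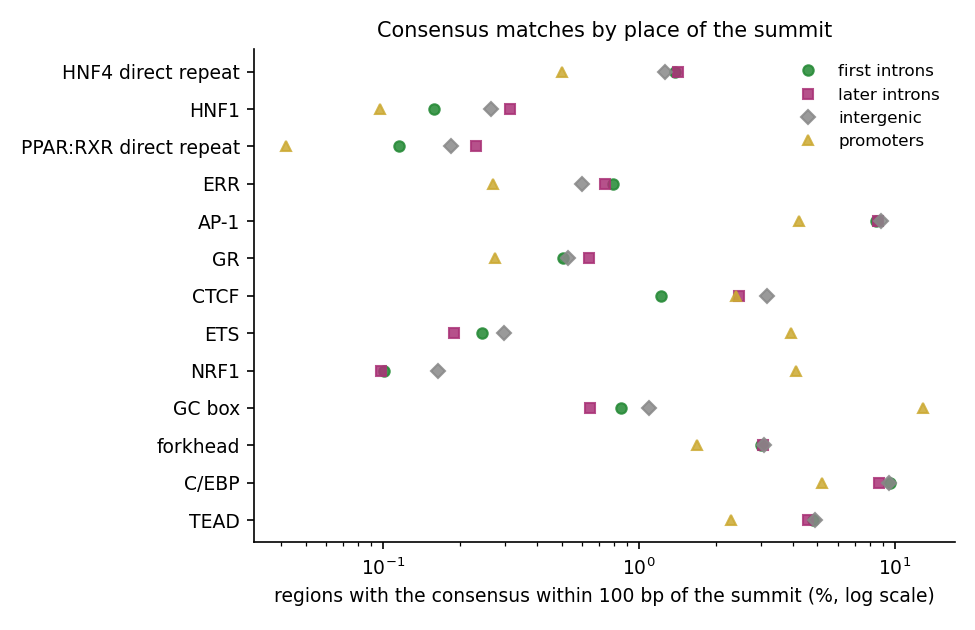
For each of 13 strings, the share of regions with a match near the summit, no more than 100 bp away (log axis), in first introns, later introns, intergenic regions and promoters. First and later introns lie close together except for CTCF and the rare HNF1 and PPAR:RXR strings, and promoters stand apart for the GC box, ETS and NRF1.

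The regions were spread unevenly over genes. Of 13055 protein-coding genes with eligible intron sequence, 5930 (45.4%) held at least 1 region, 2200 held exactly 1, 595 held 10 or more and 157 held 20 or more. The 805 genes with the most regions held as many as all the others together. The number of regions followed in part from the length of the introns, and the density over all eligible introns was 37.2 per Mb.

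The 2 highest counts came from transcripts that run across other genes. Gm20388 held 166 regions, but its single transcript is annotated as a readthrough of 4435 kb on chromosome 8 that overlaps 73 other protein-coding genes, and 93 of the regions also lay in an intron of another gene. The strongest of them lay in intron 1 of Galnt2, a glycosyltransferase gene, and it is shown because it heads the gene of highest count.
Galnt2 and Gm20388, chr8:124248799-124248999: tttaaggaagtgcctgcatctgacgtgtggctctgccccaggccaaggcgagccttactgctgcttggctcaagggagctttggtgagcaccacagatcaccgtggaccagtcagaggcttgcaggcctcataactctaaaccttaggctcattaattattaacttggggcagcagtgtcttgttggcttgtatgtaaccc
Its region (chr8:124248615-124249318) ranked at 97.3, 87.5 and 95.8 in Sham and 91.2, 97.8 and 96.96 in UNx, with overlapping groups. Fgfr2, a fibroblast growth factor receptor gene, held 102 regions over an annotated span of 2961 kb, but only 1 lay in an intron of its principal transcript of 102 kb, and 73 lay in an intron of another gene.

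Pde4d, a cyclic AMP phosphodiesterase gene, held 63 regions in 1155 kb of eligible intron, or 54.6 per Mb. The next genes were far denser. Snx29, a sorting nexin gene, held 56 (152 per Mb), Msi2, an RNA-binding protein gene, 55 (167 per Mb), Arid1b, a subunit of the BAF chromatin remodeler, 52 (165 per Mb) and Pard3, a cell polarity gene, 51 (119 per Mb). Rere, a transcriptional corepressor gene, held 48 (174 per Mb), Glis3, a zinc finger factor gene whose loss causes cystic kidneys, 48 (138 per Mb) and Bnc2, a zinc finger gene, 47 (142 per Mb). These 8 genes had the same counts in the introns of 1 principal transcript. The regions of Msi2 lay only in later introns (55 of 55), those of Snx29 in later introns for 49 of 56, and those of Rere in first introns for 19 of 48. Counts moved with the length of the lists: for Msi2 they were 52, 39 and 50 in the Sham lists and 49, 51 and 54 in the UNx lists, and Sham 2, the shortest list, gave the lowest count for each of the 10 genes.

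The strongest region among the 10 genes was in intron 4 of Arid1b (chr17:5189512-5190441), 77855 bp from the nearest start. It ranked at 98.9, 98.5 and 98.7 in Sham and 99.3, 98.6 and 98.0 in UNx, and its summit sequence was 70.6% G and C. That of Pde4d (chr13:108734075-108735211) ranked at 95.4 ± 2.42 in Sham and 96.7 ± 0.92 in UNx (SD, n = 3 each), and held a TEAD match. None of the strongest regions of these 10 genes passed the threshold, with adjusted p of 0.631 to 0.990 by limma.

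Among genes with at least 5 regions, the densest were short. Dnajc18, a cochaperone gene, held 7 regions in 12.6 kb (557 per Mb), Gosr2, a Golgi SNARE gene, 7 (545 per Mb), Rnd3, a small GTPase gene, 5 (516 per Mb), Bahd1, a heterochromatin factor gene, 6 (462 per Mb) and Zfp395 7 (447 per Mb).

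**Figure D4:**
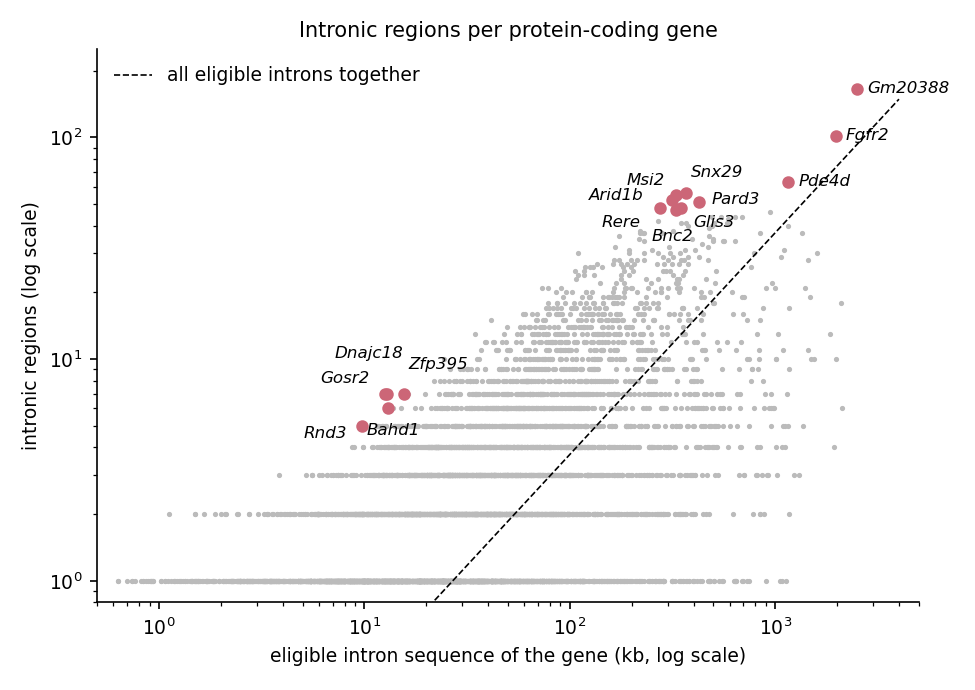
Intronic regions per protein-coding gene against its eligible intron length, both on log axes, for the 5930 genes with at least 1 region; the dashed line is the density of 37.2 per Mb over all eligible introns, and the labelled points are the 10 genes with most regions and the 5 densest. Genes on the upper edge, from Rnd3 to Msi2, lie far above the line, and Gm20388 and Fgfr2 lie near it at the right.

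Genes of proximal tubule function were rich in intronic regions. Of 36 such genes, 29 had eligible sequence and 23 held 141 regions, or 114 per Mb. Slc4a4, the basolateral sodium bicarbonate cotransporter, held 38, Dab2, an endocytic adaptor, 18 and Lrp2, which encodes the endocytic receptor megalin, 17. Of 38 genes for transcription factors of the tubule, 30 held 429 regions (89.9 per Mb), led by the nuclear receptor genes Esrrg and Rora with 44 each and the zinc finger gene Zbtb20 with 43. Of 25 growth signalling genes, 21 held 172 (98.8 per Mb), led by the receptor gene Igf1r with 37, the Hippo pathway factor Tead1 with 20, which also counts among the transcription factors, and Egfr with 17. Of 31 genes of fatty acid oxidation and PPARA targets, 9 held 32 (86.8 per Mb), with 7 each in Lpin2 and the coactivator gene Ppargc1a and 5 in Acadl, an acyl-CoA dehydrogenase gene.

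The density was lowest in the list for other cells. Of 23 genes of non-epithelial and glomerular cells, 10 held 18 regions (24.1 per Mb), led by the endothelial genes Pecam1 with 4 and Flt1 with 3 and the podocyte gene Podxl with 2. Of 21 genes placed in the list of other nephron segments, 5 held 41 regions (86.0 per Mb), but 21 of these were in Ppargc1b, a transcriptional coactivator gene, 13 in the claudin gene Cldn10 and 4 in Trpm6, a magnesium channel gene. Ppargc1b and Cldn10 are not specific to those segments.

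Few intronic regions were called as different after UNx, at about the rate of all regions, and the calls were scattered over many genes. A region that was not called may still differ. The test (limma on percentile ranks, Benjamini-Hochberg over all 74767 regions in at least 3 of the equal-length lists) included 19533 of the 24308 intronic regions (80.4%). A region high in 1 operation alone could pass that filter, so counts over the tested regions are descriptions. It called 156 intronic regions (0.799%), against 0.789% of all tested regions. Of these, 97 rose after UNx (0.497%, against 0.436% of all) and 59 fell (0.302%, against 0.353%). Ranks of the 3 UNx libraries lay wholly above those of the 3 Sham libraries for 2533 regions (12.97%, against 11.9% of all) and wholly below for 2106 (10.8%, against 11.7%), 23.7% in both directions, as in all tested regions (23.7%). By presence in the deposited lists, 481 intronic regions were in all UNx and no Sham list (1.98%, against 1.78% of all regions in at least 3 lists) and 156 the reverse (0.642%, against 0.719%).

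The calls were not stable. Leaving out 1 library left 8 to 92 (8 without UNx 3, 9 without Sham 3, 10 without UNx 1, 12 without Sham 1, 27 without Sham 2 and 92 without UNx 2), and ranks corrected for G and C content or taken by fold enrichment left 1 each. The calls that rose had a median G and C content of 53.2% and those that fell 49.3%, and the median difference went from −1.64 in the 3896 tested intronic regions lowest in G and C to 2.54 in the 4244 highest. An unadjusted limma p under 0.05 was found for 3669 intronic regions (18.8%), near the 18.6% of all tested regions. With the G and C correction it was found for 3788 of 19533, and by fold enrichment for 2815 of 19992. For settings other than the main one, the share over all tested regions is not given. The part of base composition in the calls was not tested beyond that correction.

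The median shift was upward in first introns, and in introns first in only some transcripts, and near 0 in later ones as ranked here. Over tested regions the median difference, UNx minus Sham, was 2.05 rank points in first introns and −0.15 in later introns, beside −0.01 over all tested regions, 0.07 in promoters and −1.36 in intergenic regions. The difference was above 0 for 57.2% of the 5500 tested in first introns and 49.4% of the 11605 in later introns. In introns first in some transcripts and later in others the median was 2.08 over 2428 tested regions, 57.4% of them above 0. There 15.5% had the UNx ranks wholly above and 8.98% wholly below the Sham ranks. In first introns 790 regions (14.4%) had the UNx ranks wholly above and 464 (8.44%) wholly below the Sham ranks, and in later introns 1366 (11.8%) and 1424 (12.3%). With no filter beyond the rule, so that every intronic region entered, the medians were 1.23 and 0. Both medians moved with the settings, from 0.583 (fixed windows) to 4.5997 (all deposited peaks) in first introns and from −1.54 to 2.60 in later introns in the same settings. First introns had the higher median by 2.13 with ranks corrected for G and C content, 0.894 with ranking by fold enrichment, 2.13 with fixed windows, 1.995 with all deposited peaks and 1.61 to 2.33 with 1 library left out. Across libraries, the median rank of the first introns was 43.4 ± 0.655 in Sham and 44.8 ± 0.651 in UNx (SD, n = 3 each) with no overlap (exact permutation p = 0.1, two-sided), while that of the later introns was 46.1 ± 0.655 and 45.8 ± 0.546 (exact permutation p = 0.5). The share of a list's peaks that met the position rule was 25.6% ± 0.201 in Sham and 25.9% ± 0.313 in UNx (SD, n = 3 each, exact permutation p = 0.4).

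The sequences around the summits of the Phldb2 and Igf1r rises and of the largest fall are given because the ranks of these regions separated the operations most widely.
Phldb2, rise, chr16:45893025-45893225: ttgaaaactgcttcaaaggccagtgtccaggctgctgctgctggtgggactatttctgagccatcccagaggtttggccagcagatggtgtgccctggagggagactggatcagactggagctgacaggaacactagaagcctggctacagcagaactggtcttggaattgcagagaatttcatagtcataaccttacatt
Igf1r, rise, chr7:68021840-68022040: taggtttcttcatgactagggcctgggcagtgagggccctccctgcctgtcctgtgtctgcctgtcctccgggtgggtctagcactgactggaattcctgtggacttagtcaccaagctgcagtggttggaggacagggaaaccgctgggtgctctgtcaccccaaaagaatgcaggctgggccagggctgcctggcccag
Tbc1d9, fall, chr8:83233239-83233439: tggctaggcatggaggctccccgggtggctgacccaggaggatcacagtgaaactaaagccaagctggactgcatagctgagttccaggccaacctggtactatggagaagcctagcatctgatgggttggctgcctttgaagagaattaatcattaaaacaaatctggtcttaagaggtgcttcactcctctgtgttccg
None of these windows had a match to the 13 strings.

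Among the 5 largest rises, the region of Igf1r, the receptor for insulin-like growth factor 1, lay in intron 2 of 20 (chr7:68021682-68022131), 69113 bp from the nearest start. It was not among the strongest peaks of any Sham library, although the deposited lists of Sham 1 and Sham 3 held it, and it ranked at 59.5, 58.8 and 68.0 in UNx. The difference was 62.1 ± 10.1 rank points (SE). The region in Snx29 (intron 15 of 20, chr16:11577916-11578336) was likewise at 0 in the 3 Sham libraries and ranked at 65.3, 71.8 and 48.5 in UNx (difference 61.8 ± 10.5 SE). The region in intron 3 of Plekha7, an adherens junction gene, (chr7:116269376-116269941) ranked at 9.04, 0 and 23.0 in Sham and 81.8, 68.3 and 64.1 in UNx (difference 60.7). The UNx ranks lay above the Sham ranks with no overlap in all of these, which the choice of the regions required. The other two were in Phldb2, a gene for a microtubule-anchoring protein (chr16:45892773-45893478, difference 66.6), and in the urea transporter gene Slc14a2 (difference 64.7).

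Of the 5 largest falls, 4 are described. In intron 1 of Erbb4, a receptor tyrosine kinase gene of the EGFR family, a region (chr1:68823148-68823560) ranked at 49.3, 65.1 and 58.8 in Sham and 1.13, 0 and 0 in UNx (difference −57.4 ± 10.4 rank points, SE). A region in Celf2, a splicing factor gene, (chr2:6946082-6946408) ranked at 53.2, 64.95 and 53.8 in Sham and was in no deposited UNx list (difference −57.3). The region of 4930470P17Rik (chr2:170591951-170592686) ranked at 66.3, 71.3 and 66.7 in Sham and 0, 32.9 and 0 in UNx (difference −57.2), and that of Tbc1d9 (chr8:83233017-83233672), with its summit in a soft-masked repeat, differed by −65.5. No Sham and UNx ranks overlapped in these regions, again because the choice required it. The regions of Igf1r, Snx29 and Celf2 entered the test only through the operation in which they were high, so no p is given for them. When every region entered, whatever its number of lists, the adjusted p by limma was 0.254 to 0.280 for each of the 9 rises and falls named here, and with ranks corrected for G and C content that of Tbc1d9 alone passed the threshold (0.0287).

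**Figure D5:**
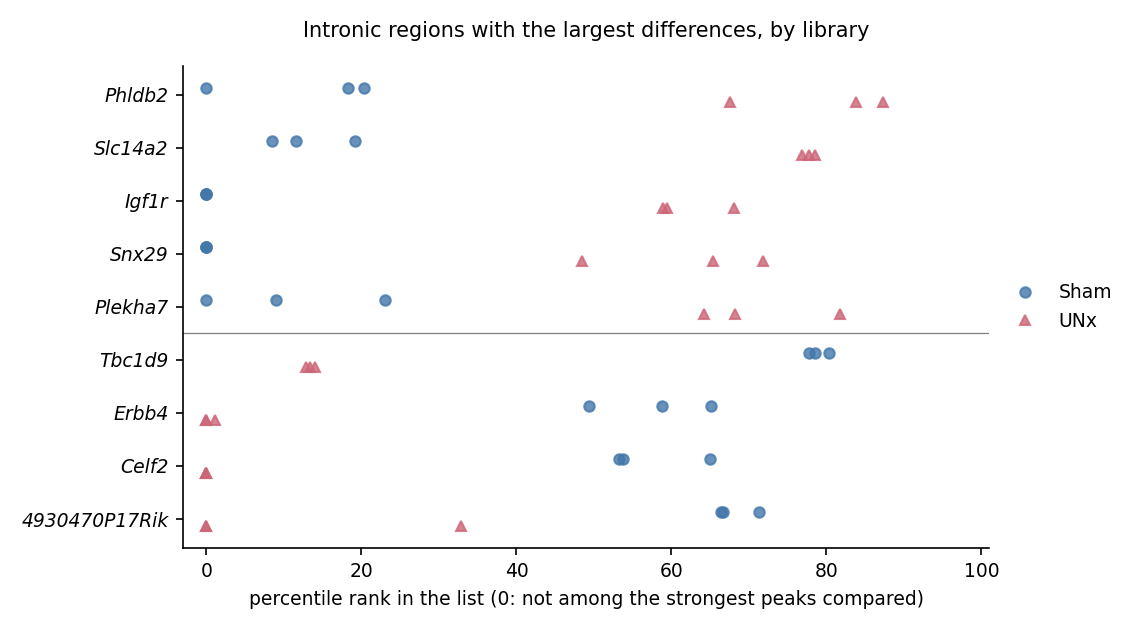
Percentile rank in each library for the 5 intronic regions with the largest rises (above the line) and 4 of the 5 with the largest falls (below it) after UNx, with Sham as circles and UNx as triangles. The 9 regions were chosen among those whose groups do not overlap, and most sit at 0 in several libraries of 1 operation.

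The 156 called regions lay in 155 genes. Only Dock2 (2 falls), Fgfr2 (2 rises) and Tbc1d1 (1 of each) held more than 1, and they were singled out after their values were seen. The rises of Fgfr2 lay in its long transcript, within the genes Tacc2 and Lhpp. Dock2 encodes an activator of Rac in leukocytes, and the leukocyte markers Ptprc and Csf1r had no promoter peak in any list. Ptprc, which encodes the leukocyte surface phosphatase CD45, held 1 intronic region, present in all 6 lists, which ranked at 29.5, 43.4 and 48.3 in Sham and 1.07, 13.7 and 2.28 in UNx, with no overlap. The part of other cells in these falls was not tested.

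Within the gene lists, 7 of 653 tested regions (1.07%, against 0.789% of all tested regions) passed the threshold. Of these, 5 rose and 2 fell, and they are named for that after their values were seen. A region in a later intron of Slc2a2, the basolateral glucose transporter of the proximal tubule, (chr3:28714048-28714665) ranked at 38.0, 13.6 and 13.4 in Sham and 66.4, 62.0 and 73.4 in UNx (difference 45.6, limma adjusted p = 0.0364). Among transcription factor genes, a region of Rxra, the partner receptor of PPARA, (chr2:27685980-27686705) ranked at 19.6, 25.0 and 28.1 in Sham and 68.6, 56.6 and 64.5 in UNx (difference 39.0, limma adjusted p = 0.0451). A region of Zbtb20 (chr16:43578977-43579652) rose from 80.7 ± 2.15 in Sham to 93.4 ± 2.15 in UNx (SD, n = 3 each), with an adjusted p of 0.0350 by limma.

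A pair of regions in transcription factor genes fell. That of Tfcp2l1, a grainyhead-like factor gene, (chr1:118642861-118644073) ranked at 86.0, 93.3 and 81.2 in Sham and 34.5, 66.7 and 53.5 in UNx (difference −35.3, limma adjusted p = 0.0330). A region of Nr3c1, the glucocorticoid receptor gene, ranked at 86.8, 87.2 and 89.0 in Sham and 55.7, 74.6 and 62.0 in UNx (difference −23.5, limma adjusted p = 0.0380). A region of Ppargc1b rose from 27.4 ± 17.9 in Sham to 75.9 ± 9.17 in UNx (SD, n = 3 each), with an adjusted p of 0.0300 by limma. The remaining one was that of Igf1r, which entered the test only through UNx and is counted as a description. The UNx and Sham ranks did not overlap in any of these regions, as in all 156 called intronic regions, so this adds nothing to the calls. After correction of the ranks for G and C content none of the 7 passed the threshold, with adjusted p of 0.0819 to 0.0902 by limma in those other than Igf1r. The corrected differences were 46.4 for Slc2a2, 37.7 for Rxra, 11.9 for Zbtb20, −36.0 for Tfcp2l1, −22.9 for Nr3c1, 48.04 for Ppargc1b and 60.8 for Igf1r.

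Regions in genes of proximal tubule function mostly ranked higher in UNx, although 1 alone passed the threshold; the list was described and not tested. Of the 103 tested, 80 had a difference above 0, as did 49.9% of all tested regions, and the UNx ranks lay wholly above the Sham ranks for 22 (21.4%, against 11.9% of all) and wholly below for 5 (4.85%, against 11.7%). Their median rank was 38.0, 32.6 and 33.1 in Sham and 43.1, 44.8 and 53.1 in UNx, with no overlap. The median difference was 6.17 rank points, beside −0.01 over all tested regions, 5.33 to 8.72 with 1 library left out and 6.95 with ranks corrected for G and C content. The 13 tested regions of Dab2 had a median difference of 10.01, the 13 of Lrp2 7.93 and the 27 of Slc4a4 4.06, and the region past the threshold was that of Slc2a2.

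For the transcription factor genes the median difference over 349 tested regions was 3.57, with 55 (15.8%) wholly above and 23 (6.59%) wholly below, against 11.9% and 11.7% of all tested regions. For growth signalling genes it was 2.13 over 142, with 20 (14.1%) and 16 (11.3%), near the shares of all tested regions, and for fatty acid oxidation and PPARA targets 2.32 over 27, with 4 (14.8%) and 2 (7.41%). With 1 library left out these medians ranged from 2.18 to 3.93, from 0.642 to 3.43 and from 0.888 to 3.50. In the list of other nephron segments it was 4.25 over 32 regions, 16 of them in Ppargc1b, with 6 (18.8%) above and 1 (3.13%) below.

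The list of non-epithelial and glomerular genes went the other way. Of 15 tested regions, 13 had a difference below or at 0, none lay wholly above and 5 (33.3%, against 11.7% of all) wholly below, and the median difference was −10.7 rank points. Their median rank was 26.8, 33.3 and 29.6 in Sham and 18.6, 13.7 and 2.12 in UNx, and no region passed the threshold. In bulk tissue, fewer cells of a type and a weaker peak in each of them cannot be told apart. Beside these values, the promoter markers of endothelium (Pecam1, Emcn and Cdh5) had ranks summing to 14.3 on average in Sham and 0 in UNx, each at 0 in at least 2 of 3 Sham libraries. The promoter ranks of Slc12a1 were 56.9 on average in Sham and 30.2 in UNx, and those of Umod, of the same segment, 65.4 and 69.4. Nphs1, a podocyte marker, had 20.1 and 23.8, and the stromal marker Col1a1 had 69.2 and 61.0. Slc22a7 and Cyp4b1, markers of later proximal segments, had 66.6 and 50.1, and 77.0 and 63.0. The summed ranks of the 5 S1 markers were 422.7 and 425.1. Of these other markers Umod and Nphs1 were higher in UNx on average and the rest lower. The part of other cells in the differences of the intronic regions was not tested.

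By consensus string, intronic regions with a CTCF match had a median difference of −7.62 over 435 tested, with 1.84% wholly above and 22.5% wholly below (11.9% and 11.7% over all tested regions), close to the −5.81 of all tested regions with that string. Those with a GR match had −4.77 over 118, with 4.24% above and 18.6% below, beside −3.69 in all tested regions with that string. Those with an HNF4 direct repeat had 2.80 over 282 (15.6% above, 3.90% below), with ERR 3.63 over 138 (9.42% and 3.62%), with TEAD 2.30 over 929 (17.3% and 6.89%), and with a GC box 5.53 over 139, where all tested regions with a GC box, mostly promoters, had 0.03. All tested regions with the string had 3.60 for HNF4, 2.43 for ERR and 1.41 for TEAD. Intronic regions with HNF1 had −1.41 over 56 (7.14% and 8.93%), with ETS 4.81 over 37 and with AP-1 1.20 over 1692. For the remaining strings the median was −0.575 to 1.52.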

How the data were processed

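ATAC-seq peak lists of 3 Sham and 3 UNx libraries were used. The submitters' processing notes name cutadapt 3.4, Bowtie, SAMtools, Picard, MACS2 2.2.7.1 and the build mm10. Peaks were called by the authors in each library separately, and replicates were not pooled in the deposited lists. Per the file headers and values, each deposited summit has a display score, a fold enrichment (a ratio), a −log10 p and a −log10 q. These values of the authors served to rank, filter or describe the peaks of a single list, and any filter applied before deposit is not given in the sources used here. Transposase offset handling is not given in the sources used here and moves positions by a few bases at most.

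A peak was 1 distinct interval with its strongest summit. Intervals of the 6 lists overlapping by at least 1 bp were merged, a region was placed by its summit of highest −log10 q, and introns were those of protein-coding transcripts of protein-coding genes. Ranks were taken in lists cut to the 77355 strongest peaks. Regions were tested with limma 3.58.1 in R 4.3.3 (lmFit, then eBayes with a variance trend and robust estimation; two-sided; Benjamini-Hochberg threshold 0.05), after the step was tested on simulated ranks. Other comparisons used exact permutation or sign-flip tests over libraries. Depth is unknown, so no interval that needs it is given.

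The members and the lists, strings and markers were chosen with earlier results of these data known. The genes named were the 10 with most regions, the 5 densest with at least 5 regions, and the 3 with most regions in each of 6 gene lists. The regions named were the 3 strongest in first and in later introns, the 5 largest called rises and falls without overlap of the groups, and the strongest of each of the 10 genes. Some regions that this rule selects, and 1 of the markers, are not reported here. Genes singled out after their values were seen are marked as such. Alternatives covered the merge, thresholds, distance, summit, ranking, filter, variance model, annotation, transcripts, the replicate block and leaving out each library. The basic annotation and the removal of readthrough transcripts were chosen after seeing the data. The labels do not say that a shared replicate number pairs libraries.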

Additional observations from a re-analysis of the deposited data

How the results depend on the processing

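The count of 24308 intronic regions fell to 14985 with presence in all 6 lists and rose to 37568 with presence in at least 1. In 14 other settings it was within 1.5 times, 22518 to 23839 with 1 library left out and 30087 with the basic annotation. The share of intronic peaks per list, UNx minus Sham, was 0.284 percentage points and changed sign with fixed windows around summits (−0.177) and with regions in all 6 lists (−0.572), and ranged from 0.109 to 0.411 with 1 library left out. Placing summits by percentile rank does not apply to it. The log2 density ratio of first to later introns stayed between 0.514 and 0.605 in 11 other settings, and with 1 library left out it was 0.552 to 0.595 in 5 of 5 libraries, where the smallest exact p is 0.0625. The lower median rank of first introns passed the threshold over 2.5 kb from starts (−2.03), with summits by percentile rank (−1.95), 1 transcript per gene (−2.20) and the basic annotation (−2.45), each with an exact p of 0.03125.

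The 156 called intronic regions became 380 with array weights, 437 with normal scores and 65 with fixed windows. They became 7 with all deposited peaks ranked, 1 with ranking by fold enrichment and 1 with GC-corrected ranks, and 8 to 92 with 1 library left out. limma called 0 with the 20000 strongest peaks, with regions in 3 deposited lists and with no filter. There 671 of 3428, 3638 of 24308 and 3154 of 24308 tested intronic regions had an unadjusted p under 0.05. The cause of these changes was not tested. In 8 other settings, the basic annotation (197) among them, the count was within 1.5 times.

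With the replicate number as a block, 13 were called. When GC-corrected ranks were fitted with it, 0 were called, and 3517 of 19533 tested intronic regions had an unadjusted p under 0.05. The deviations of same-numbered libraries correlated at 0.00807, −0.100 and −0.0495, and those of differently numbered ones at −0.0778 to 0.105. These values describe shared rank deviations only, and whether the numbers pair libraries remains unknown.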
